A study of Homo sapiens with 6 samples.

Results

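Cadherins and protocadherins were followed in Y79 cells, a line established from a human retinoblastoma, after expression of a hairpin RNA against the transcription factor gene MYCN. The genes were taken by symbol from the gene counts table, as every row whose name starts with CDH followed by a number or with PCDH, which gave 85 genes of 17013. They comprise 5 type I and 10 type II classical cadherins, 5 other cadherins, 53 clustered protocadherins (15 PCDHA, 16 PCDHB and 22 PCDHG) and 12 protocadherins that stand alone in the genome. The 2 groups were Y79 cells with control shRNA, labelled MYCN wild-type (3 libraries), and Y79 cells with MYCN shRNA, labelled MYCN knockdown (3 libraries). Both groups therefore carry a hairpin, all 6 libraries are labelled with the same batch, and poly(A) RNA was sequenced. One cell line was used, and nothing in the labels ties the replicates to separate cultures, so p-values measure the spread between these libraries, which may be technical. The labels used here name neither the number of hairpin sequences nor the time after their delivery.

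Cadherins are membrane proteins that hold cells together in the presence of calcium. Classical cadherins bind the same or a related cadherin on the neighbouring cell and are tied to the actin skeleton by catenins; in the nervous system they sort cells into layers and guide synapse formation. The clustered protocadherins lie in 3 neighbouring arrays on chromosome 5. Each neuron switches on a few of their many promoters, and the resulting mix of isoforms on the surface lets a neuron tell its own branches from those of others, in the retina as elsewhere. In the PCDHA and PCDHG arrays each variable first exon is spliced to a set of constant exons that all isoforms of the array share, whereas PCDHB genes consist of a single coding exon. The last promoters of the PCDHA and PCDHG arrays make the C-type isoforms (PCDHAC1, PCDHAC2, PCDHGC3, PCDHGC4 and PCDHGC5), which are regulated apart from the rest.

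In GRCh38 the PCDHA genes span 140786136 to 141012347, the PCDHB genes 141051135 to 141249365 and the PCDHG genes 141330571 to 141512981, all on chromosome 5. Most of their promoters share a short sequence element with the letters CGCT, known as a binding site of the insulator protein CTCF, and the windows below show how the letters around it differ between the 3 arrays. The RefSeq promoter table (GRCh38.p14, 250 bases before to 50 after a start) held 47 of the 53 clustered genes, and PCDHA3 and PCDHA13 were not among them. CGCT occurred on either strand in 46 of the 47, against 70.01% of all 35116 promoters. Capitals mark the 8-base sequence around CGCT that the largest number of promoters of each array share, which was chosen after these sequences were seen. Each window has 30 bases, 5′ to 3′ on the coding strand, and was taken from genes that rose in the comparison below.
PCDHA4: gtttggagccacatgATGTCGCTctttacc
PCDHA7: catgatggccacatgATGTCGCTctttacc
PCDHB2: cggaagagacgcgggGTGGCGCTgcagcct
PCDHB5: aaattaggacgcctgGTGGCGCTgcaggct
PCDHB14: acatggagacacatgGTGGCGCTacaggat
PCDHB15: caaagacaacgcatgGTGGCGCTgcaggct
PCDHGA10: cttaggactctgagcGCCGCTGTtcaccta
PCDHGC3: gctgggactctgtgtGCCGCTGTcggccaa
These windows lie at chr5:140806976-140807005 (PCDHA4), chr5:140834169-140834198 (PCDHA7), chr5:141094541-141094570 (PCDHB2), chr5:141135176-141135205 (PCDHB5), chr5:141223260-141223289 (PCDHB14), chr5:141245311-141245340 (PCDHB15), chr5:141412930-141412959 (PCDHGA10) and chr5:141475879-141475908 (PCDHGC3), all on the plus strand.
ATGTCGCT was found in 9 of 13 PCDHA promoters, GTGGCGCT in 13 of 14 PCDHB promoters and GCCGCTGT in 11 of 20 PCDHG promoters, and none of the 3 was found in a promoter of another array. On either strand they occur in 0.2335%, 1.15% and 1.635% of all promoters, respectively. The 4 PCDHA promoters without ATGTCGCT belong to PCDHA9, PCDHA11, PCDHAC1 and PCDHAC2. The regions searched for PCDHA9 and PCDHA11 begin at 140848132 and 140868707, past the GENCODE starts of these genes (140847463 and 140868183). For PCDHAC2 the region begins at 140966226, just before the GENCODE start of 140966235. The sequence upstream of these GENCODE starts was thus not searched, or hardly so for PCDHAC2, and its presence there was not tested. Some matches also lie past a GENCODE start. The windows of PCDHA4 and PCDHB14 begin at 140806976 and 141223260, past starts of 140806929 and 141222932. The regions of PCDHB16 and PCDHGA8, which hold their array's sequence, begin at 141182137 and 141392383, past GENCODE starts of 141181399 and 141390157.

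MYCN itself was measured at 3046, 3128 and 2876 CPM (counts relative to library size, scaled by TMM factors) in the control libraries and at 2413, 2284 and 2195 CPM in the MYCN shRNA libraries. The groups did not overlap, and the log2 fold change was -0.39 ± 0.043 (SE; adjusted p = 8.0e-11). Before scaling, MYCN had 46397, 46904 and 41482 counts in control and 40559, 37864 and 35981 in MYCN shRNA libraries. The TMM factors were lower in control libraries and widened this gap, so part of the fall in CPM comes from the scaling. Here and below, fold changes are MYCN shRNA over control, and adjusted p is from edgeR's quasi-likelihood test with Benjamini-Hochberg adjustment over all 12819 genes tested. Library totals were 15490263 to 16078416 counts. The comparison changed most of the transcriptome: at an adjusted p under 0.05, 75.8% of the tested genes were called, 38.0% as higher and 37.9% as lower. In 76.8% of the tested genes the libraries of the 2 groups did not overlap, so a lack of overlap is common here. Of the photoreceptor lineage genes that mark this tumour, 10 of 10 were tested, 8 were called higher and 2 lower, and their summed level was 1914 to 2027 CPM in control and 1790 to 1842 CPM in MYCN shRNA libraries. CRX stood at 217 ± 10.8 and 278 ± 6.21 CPM (SD, n = 3 in all that follows), THRB (log2 fold change 2.45) and NRL (1.26) rose, and OTX2 (-0.67) and NEUROD1 (-0.74) fell.

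Of the 85 genes, 38 had enough reads to be tested. With MYCN shRNA, 22 of the 38 were called higher, 3 lower and 13 not called, so 65.8% were called, against 75.8% of all tested genes. The groups did not overlap for 27 of the 38 (71.1%, against 76.8% of all tested genes). The median log2 fold change was 0.49, against 0.005 over all tested genes. At least 2-fold changes were called in 12 genes upward (background 9.24%) and 2 downward (background 5.25%). Most members are low in these cells, and low genes tended upward in the whole table: among the tested genes with a mean of 2 to 20 CPM, 41.2% were called higher and 29.7% lower with a median of 0.12, while 12 of the 18 members in that range were higher and 2 lower with a median of 0.51. Under 2 CPM, 6 of 16 members were higher and 1 lower, against 43.0% and 16.9% of all tested genes, a share near the background. At 20 CPM or more, all 4 members rose, against 35.8% of genes. The filter asks for reads in 3 libraries, so 3 members (PCDHA7, PCDHB15 and CDH11) were tested through the MYCN shRNA libraries alone and CDH3 through the control libraries alone; these could only be tested because they differ.

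By subfamily, the direction was uneven. Among classical cadherins 4 of 7 tested rose and 1 fell; among PCDHA genes 5 of 12 rose and 2 fell with a median of 0.03; among PCDHB genes 8 of 10 rose and 0 fell with a median of 0.90; among PCDHG genes 3 of 6 rose and 0 fell with a median of 0.59. For comparison, 38.0% of all tested genes rose and 37.9% fell, with a median of 0.005. No test of the difference between subfamilies was made. The PCDHA counts turned on single libraries: 3 rose without control replicate 1 or MYCN shRNA replicate 3 and with DESeq2, and 4 fell without control replicate 3 or MYCN shRNA replicate 2. For PCDHG, 5 rose without control replicate 2. Of the 12 protocadherins outside the arrays, 2 were tested and 1 rose. Libraries are bulk RNA, so fewer cells of a type and less RNA per cell cannot be told apart in any of these values.

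**Figure D1:**
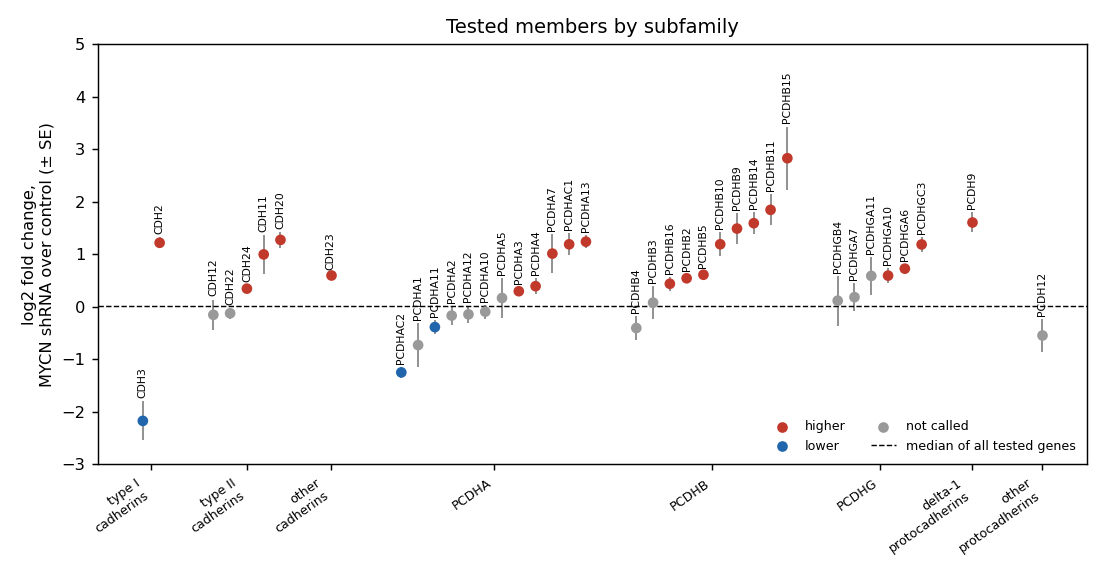
Log2 fold change (MYCN shRNA over control, vertical axis, bars ± SE) of the 38 tested members, grouped by subfamily; red points were called higher, blue lower, grey not called, and the dashed line is the median of all tested genes. PCDHB15 is the highest point at 2.83 and CDH3 the lowest at -2.18, and the PCDHB genes hold no blue point.

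Of the type I classical cadherins, CDH2 rose and CDH3 fell. CDH2 (N-cadherin, chromosome 18, 27950966 to 28177446) is the main cadherin of neural tissue and holds the retinal layers together. It was at 7.29, 6.47 and 6.86 CPM in control and 16.9, 15.8 and 15.2 CPM in MYCN shRNA libraries. Every MYCN shRNA library was above every control library, and the log2 fold change was 1.21 ± 0.102 (adjusted p = 3.5e-14). CDH3 (P-cadherin, chromosome 16, 68636189 to 68722616), a cadherin of epithelia such as the retinal pigment epithelium, was at 1.38, 1.40 and 1.11 CPM in control and 0.298, 0.302 and 0.244 CPM in MYCN shRNA libraries. These rest on 58 counts in all against 14, with a log2 fold change of -2.18 ± 0.373 (adjusted p = 1.7e-06). In single libraries there were 4.62 to 6.19 CDH2 counts per CDH3 count in control and 52.4 to 62.3 in MYCN shRNA cells. The pair was chosen for its opposite calls, so this ratio is a description.

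The other 3 type I cadherins were too low for the test. CDH15 (M-cadherin, chromosome 16, 89171767 to 89195492), known from skeletal muscle, had 10, 17 and 11 counts in the control libraries and 2, 0 and 1 in the MYCN shRNA libraries. The ratio of MYCN shRNA to control at equal depth was 0.0708, with an exact 95% interval of 0.0140 to 0.223 that covers counting error only. Without the count filter CDH15 was called lower (adjusted p = 6.3e-08), as it was when control replicate 1 or any MYCN shRNA library was left out and it passed the filter. CDH1 (E-cadherin), the cadherin of most epithelia, had 3 counts in control and 10 in MYCN shRNA libraries, and CDH4 (R-cadherin, first described in retina) had 16 and 16, so no difference was detectable at this depth for either.

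CDH2 is also made by Müller glia, fibroblasts and endothelium, and CDH3 by pigment epithelium, so the marker genes of these cells are given beside them. Of the Müller glia list, 6 genes were in the table, 3 were tested, 1 was higher and 1 lower, its summed level was 1150 to 1195 CPM in control and 1172 to 1204 CPM in MYCN shRNA libraries, and RLBP1, GFAP and AQP4 were near 0. The fibroblast list summed to 2.22 to 2.67 CPM and 5.06 to 6.43 CPM, with 2 of 5 genes called higher and DCN and LUM near 0. The pigment epithelium list summed to 3.30 to 3.57 CPM and 11.03 to 12.7 CPM, with 2 of 4 genes higher, among them RPE65 at 0.244 ± 0.151 and 4.72 ± 0.208 CPM. The endothelial list summed to 3.93 to 4.66 CPM and 31.3 to 34.98 CPM, carried by VWF with KDR at 0. The leukocyte list summed to 1.18 to 1.53 CPM and 0.833 to 1.34 CPM, with 0 of 4 genes called. The part of these changes in the cadherin results was not tested.

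Of the 10 type II classical cadherins 5 were tested, and CDH20, CDH24 and CDH11 rose. CDH24 (chromosome 14, 23047062 to 23057538) had the highest level per kilobase of transcript of all members, at 11.3 CPM per kb in control and 14.3 in MYCN shRNA libraries. Its library values were 40.2, 38.1 and 38.3 CPM in control and 47.4, 54.3 and 46.2 CPM with MYCN shRNA, a small but separated rise (log2 fold change 0.34 ± 0.060, adjusted p = 2.7e-06). CDH20 (chromosome 18, 61333582 to 61555773) more than doubled, from 3.15, 3.07 and 2.70 CPM to 6.60, 7.30 and 7.69 CPM (log2 fold change 1.27 ± 0.145, adjusted p = 2.2e-10). CDH11, the osteoblast cadherin whose locus is lost in some retinoblastomas, was close to the limit of the test at 0.525, 0.467 and 0.416 CPM in control and 0.655, 0.844 and 1.34 CPM with MYCN shRNA. Its log2 fold change of 0.99 ± 0.376 (adjusted p = 0.0162) fell to 0.66 (adjusted p = 0.165) without MYCN shRNA replicate 3, was not called without control replicate 3 (adjusted p = 0.0565), and was not called by DESeq2.

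CDH22 (chromosome 20, 46173733 to 46308498), a brain cadherin, was among the most abundant members and was not called. It stood at 11.5 ± 0.496 CPM in control and 10.5 ± 1.11 CPM in MYCN shRNA libraries, with overlapping groups (log2 fold change -0.13 ± 0.102, adjusted p = 0.26). CDH12 was at 1.12 ± 0.228 and 1.00 ± 0.113 CPM and was not called either (adjusted p = 0.636). CDH6 and CDH9 had no read in any library; 0 counts allow up to 3 in a library. CDH7, CDH10 and CDH18 had 7 to 14 counts over all 6 libraries.

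CDH23 was the most abundant member by reads. It encodes a very long cadherin that forms the tip links of hair cells in the inner ear together with PCDH15; it is also found in photoreceptors, and its loss causes Usher syndrome, which combines deafness with retinal degeneration. CDH23 (chromosome 10, 71396934 to 71815947) was at 73.2, 72.0 and 64.9 CPM in control and 108.6, 104.95 and 103.8 CPM in MYCN shRNA libraries. The groups were well apart, with a log2 fold change of 0.59 ± 0.048 (adjusted p = 1.4e-14), and per kilobase the level went from 6.30 to 9.51 CPM. C10orf105 lies inside CDH23 on the opposite strand, with 3444 exonic bases in common; use of strand in the authors' counting is not given in the sources used here. C10orf105 moved the other way, from 20.5 ± 1.63 to 9.65 ± 1.51 CPM (log2 fold change -1.09, adjusted p = 2.8e-13). The ratio of CDH23 to C10orf105 counts was 3.28 to 3.58 in control and 9.61 to 13.6 in MYCN shRNA libraries, given as a description. PCDH15, the partner of CDH23 in the tip link, had 6 counts in control and 5 in MYCN shRNA libraries. The remaining other cadherins, CDH13, CDH16, CDH17 and CDH26, had 3 to 49 counts over the 6 libraries and were not tested.

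**Figure D2:**
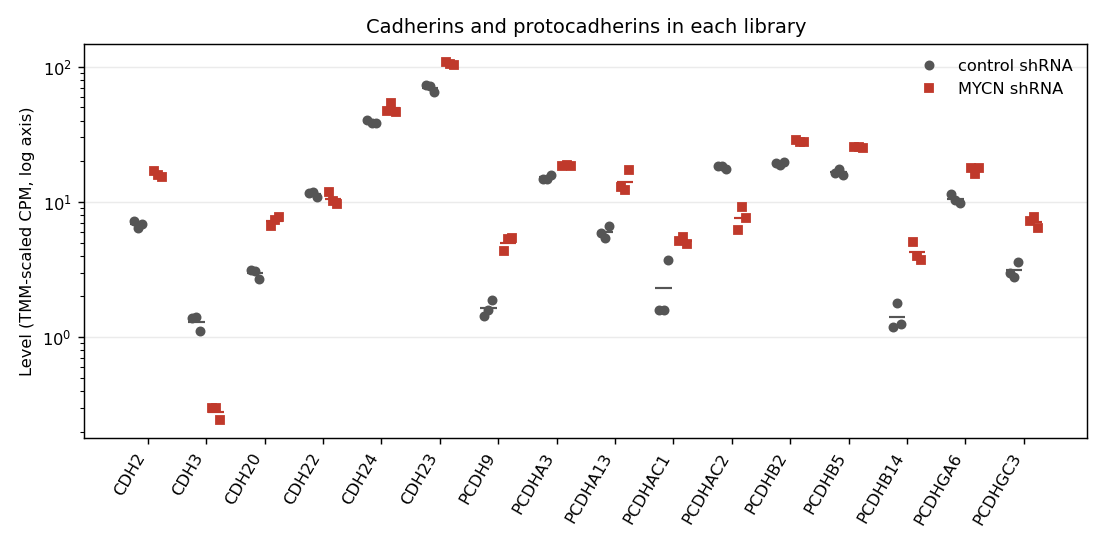
Level of the most abundant or most changed members in each of the 6 libraries (CPM, log axis), with control libraries as grey circles, MYCN shRNA libraries as red squares and group means as short lines. CDH23 and CDH24 are the highest in every library, and CDH22 is a member whose groups overlap.

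The summed level of the PCDHA array overlapped between groups while its composition differed. Summed over the 15 genes it was at 72.1, 72.2 and 73.5 CPM in control and 67.6, 74.6 and 78.3 CPM in MYCN shRNA libraries, which overlap (ratio of means 1.012; 1.15 when scaled by library totals alone). PCDHAC2, a C-type isoform which is needed for the even spread of axons of serotonin neurons in the mouse brain, fell, and PCDHA13 and the other C-type isoform, PCDHAC1, rose. Because each PCDHA transcript shares a median of 2866 of 5260 bases with the rest of the array, reads in the constant exons had to be divided between isoforms, and 92.2% of the PCDHA values in the table are not whole numbers, against 12.7% over all genes. The split between isoforms is therefore less certain than the array's sum.

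PCDHAC2 was the highest PCDHA gene in control cells, at 18.6, 18.5 and 17.5 CPM, and was at 6.15, 9.13 and 7.67 CPM in MYCN shRNA libraries. The groups were far apart, and the log2 fold change was -1.25 ± 0.105 (adjusted p = 3.8e-14). PCDHA13 was at 5.86, 5.39 and 6.63 CPM in control and 12.8, 12.3 and 17.2 CPM in MYCN shRNA libraries (log2 fold change 1.24 ± 0.124, adjusted p = 3.0e-11). PCDHAC1 was at 1.58, 1.60 and 3.69 CPM in control and 5.14, 5.50 and 4.86 CPM in MYCN shRNA libraries (log2 fold change 1.19 ± 0.213, adjusted p = 1.9e-05). Control replicate 3 stood apart for PCDHAC1, and without it the log2 fold change was 1.69. The ratio of PCDHAC1 to PCDHAC2 counts was 0.0849, 0.0865 and 0.211 in control and 0.836, 0.603 and 0.634 in MYCN shRNA libraries, and that of PCDHA13 to PCDHAC2 was 0.291 to 0.378 and 1.34 to 2.24. The genes of both ratios were chosen for their opposite calls, so the ratios are descriptions. Antisense transcripts overlap exons of several members, here PCDHAC2 by 256 bases, PCDHA13 by 435 and PCDHA3 by 433, elsewhere CDH3 by 694, PCDHB2 by 620, PCDHB5 by 501 and PCDHB16 by 815, and their reads cannot be told apart if strand was not used.

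As shares of the array's reads, PCDHAC2 went from 25.1% ± 1.05 to 10.4% ± 1.65 and PCDHA13 from 8.20% to 19.1%. PCDHA3 held 20.9% in control and 25.3% in MYCN shRNA libraries, where it was the leading isoform. It rose little in level, from 14.8, 14.8 and 15.9 CPM to 18.3, 18.9 and 18.5 CPM (log2 fold change 0.29 ± 0.081, adjusted p = 0.0013). PCDHA11 was called lower at 8.89, 7.54 and 7.86 CPM against 6.64, 6.84 and 4.99 CPM (log2 fold change -0.39 ± 0.128, adjusted p = 0.0059), but not without MYCN shRNA replicate 3 (adjusted p = 0.0827) or when scaled by library totals alone (-0.21, adjusted p = 0.143). PCDHA4 and PCDHA7 were called higher, with log2 fold changes of 0.39 and 1.01. DESeq2 called neither, PCDHA4 was not called without control replicate 1, control replicate 3 or MYCN shRNA replicate 3 (adjusted p = 0.0983, 0.0678 and 0.0974), and PCDHA7 was not called without control replicate 1 or MYCN shRNA replicate 3, where it was at 0.64 (adjusted p = 0.0645 and 0.161). PCDHA1, PCDHA2, PCDHA5, PCDHA10 and PCDHA12 were not called, with log2 fold changes of -0.73 to 0.16. The sum of the 13 regular isoforms, PCDHA1 to PCDHA13, was 52.1 ± 0.152 CPM in control and 60.7 ± 4.74 CPM in MYCN shRNA libraries.

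**Figure D3:**
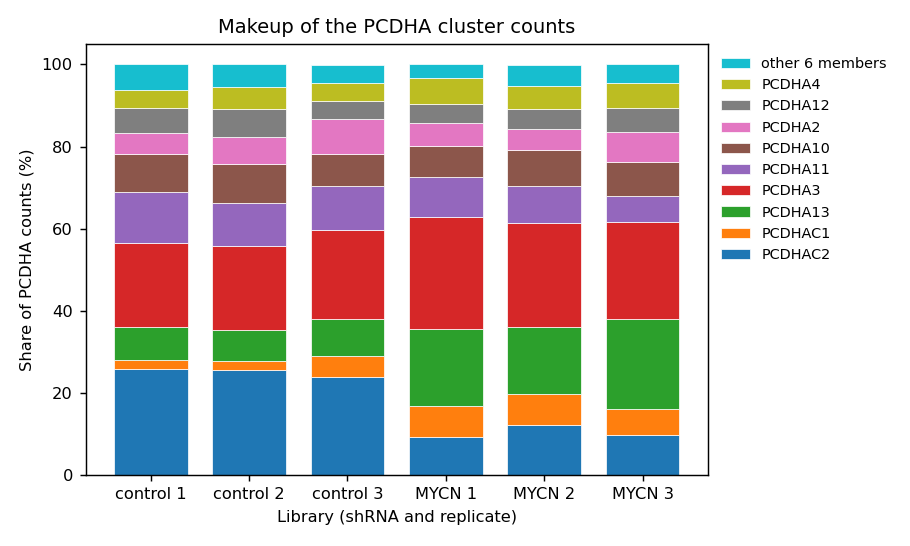
Share of the summed PCDHA reads (percent, vertical axis) held by 9 isoforms, and by the other 6 together, in each of the 6 libraries. The PCDHAC2 band shrinks from a mean of 25.1% in control to 10.4% in MYCN shRNA libraries, and the PCDHA13 band widens from 8.20% to 19.1%.

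The PCDHB array was higher as a sum with MYCN shRNA. Summed over its 16 genes it was at 47.8, 49.1 and 49.6 CPM in control and 76.8, 75.5 and 74.6 CPM in MYCN shRNA libraries, a ratio of means of 1.55 (1.76 when scaled by library totals alone). PCDHB transcripts share no exonic bases with each other in the annotation, so their counts are less open to division between isoforms than those of PCDHA, though their coding sequences are similar and 34.4% of the values are not whole numbers. PCDHB2 and PCDHB5 carried most of the array's reads. PCDHB2 was at 19.3, 18.6 and 19.7 CPM in control and 28.5, 27.6 and 27.6 CPM in MYCN shRNA libraries (log2 fold change 0.54 ± 0.070, adjusted p = 4.9e-09). PCDHB5 was at 16.4, 17.6 and 15.9 CPM and 25.6, 25.3 and 25.3 CPM (log2 fold change 0.61 ± 0.074, adjusted p = 1.1e-09). In both, all MYCN shRNA libraries lay above all control libraries, with little spread. Together with PCDHB16 they held 84.6% of the array's reads in control and 80.2% in MYCN shRNA libraries.

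Of the lower members of the array 5 had larger log2 fold changes, and PCDHB3 and PCDHB4 did not pass the test. PCDHB14 was at 1.18, 1.801 and 1.25 CPM in control and 5.08, 3.99 and 3.72 CPM in MYCN shRNA libraries (log2 fold change 1.59 ± 0.204, adjusted p = 3.8e-09). PCDHB11 was at 0.394, 0.734 and 0.624 CPM in control and 2.56, 2.05 and 1.71 CPM in MYCN shRNA libraries (log2 fold change 1.84 ± 0.294, adjusted p = 4.3e-07). PCDHB15 had 3, 0 and 1 counts in control and about 11, 11 and 12 in MYCN shRNA libraries (log2 fold change 2.83 ± 0.601, adjusted p = 5.6e-05). PCDHB9 (1.49) and PCDHB10 (1.19) were also called higher, whereas PCDHB3 (0.08, adjusted p = 0.838) and PCDHB4 (-0.41, adjusted p = 0.105) were not. Along the chromosome, the 5 tested genes from PCDHB9 to the end of the array rose by 1.19 to 2.83 on the log2 scale, and the 5 tested genes before it had changes of -0.41 to 0.61. The split at PCDHB9 was not set in advance, so the gap between the 2 stretches is a description. PCDHB15 was tested through the MYCN shRNA libraries alone, PCDHB9 and PCDHB11 did not reach the count minimum in every library, and PCDHB12 and PCDHB13 of the same stretch were too low to test (13 counts against 26, and 5 against 17), so the filter favours genes that rose here. Control levels were 0.909 to 19.2 CPM before PCDHB9 and 0.0888 to 1.41 CPM from PCDHB9 on, and overlap: PCDHB3 and PCDHB4, at 0.909 and 1.95 CPM in control, lie on either side of PCDHB10 (1.14) and PCDHB14 (1.41). PCDHB2, PCDHB5 and PCDHB16, at 19.2, 16.7 and 5.44 CPM in control, were above every tested gene from PCDHB9 on. Position was not tested apart from level.

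**Figure D4:**
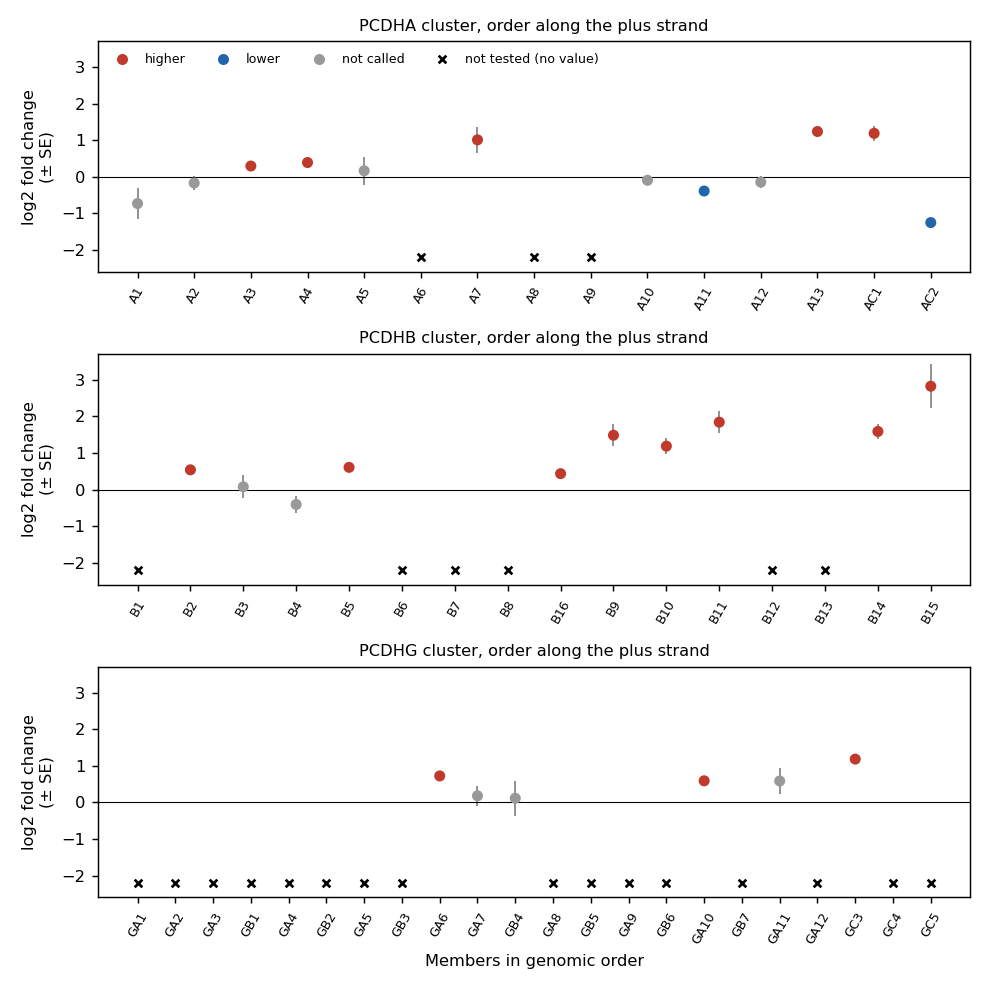
Log2 fold change (vertical axis, bars ± SE) of the tested PCDHA, PCDHB and PCDHG genes in their order along chromosome 5, 1 panel per array; red points were called higher, blue lower and grey not called, and crosses mark genes that were not tested and carry no value. In the PCDHB panel the 5 tested genes from PCDHB9 on lie between 1.19 and 2.83, above the 5 tested genes before them, a split that was not set in advance.

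The PCDHG array, whose C-type isoforms are needed for the survival of many interneurons, was also higher as a sum. It was at 24.7, 23.8 and 23.2 CPM in control and 40.5, 39.6 and 39.2 CPM in MYCN shRNA libraries, a ratio of means of 1.66 (1.89 when scaled by library totals alone). PCDHGA6 was its highest member, at 11.4, 10.3 and 9.74 CPM in control and 17.96, 16.15 and 17.7 CPM in MYCN shRNA libraries (log2 fold change 0.72 ± 0.093, adjusted p = 3.8e-09). PCDHGC3, a C-type isoform, was at 3.002, 2.79 and 3.61 CPM and 7.24, 7.72 and 6.41 CPM (log2 fold change 1.18 ± 0.147, adjusted p = 1.7e-09). PCDHGA10 was at 4.38 ± 0.352 CPM and 6.63 ± 1.03 CPM (log2 fold change 0.59, adjusted p = 2.6e-04). These 3 genes held 75.3% of the array's reads in control and 78.1% in MYCN shRNA libraries. Their libraries did not overlap between groups, as in 76.8% of all tested genes. PCDHGA7, PCDHGA11 and PCDHGB4 were not called, and PCDHG transcripts share a median of 2181 of 4611 bases, with 44.7% of values not whole. PCDHGC4 varied within both groups, with about 25, 7 and 5 counts in control and 1, 27 and 0 in MYCN shRNA libraries.

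Of the 5 C-type isoforms, PCDHAC1 and PCDHGC3 rose, PCDHAC2 fell, and PCDHGC4 and PCDHGC5 were too low to test. Of the genes that carry their array's 8-base promoter sequence, 2 of 7 tested PCDHA genes, 7 of 9 tested PCDHB genes and 2 of 4 tested PCDHG genes rose and 0 fell, where 38.0% of all tested genes rose and 37.9% fell. Of the PCDHA genes without it in the region searched, PCDHAC1 rose and PCDHAC2 and PCDHA11 fell. For PCDHA11 that region lies past the gene's GENCODE start, and for PCDHAC2 almost all of it does. Among the genes with a match that rose, those of PCDHA4, PCDHB14 and PCDHB16 also lie past the GENCODE start. PCDHGA6 rose without GCCGCTGT in its region. A match is a description of the letters, and binding of CTCF was not measured here.

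Among the protocadherins outside the arrays, PCDH9 rose. PCDH9 (chromosome 13, 66302834 to 67230445) is a delta-1 protocadherin of the developing brain and retina. It was at 1.43, 1.60 and 1.87 CPM in control and 4.34, 5.31 and 5.38 CPM in MYCN shRNA libraries (log2 fold change 1.61 ± 0.183, adjusted p = 2.1e-10). PCDH12, first described in endothelium, was at 1.12 ± 0.166 and 0.762 ± 0.237 CPM and was not called (log2 fold change -0.55, adjusted p = 0.112), although its groups did not overlap. The 5 delta-2 protocadherins, which recruit the WAVE actin regulators through their tails, had 3 to 49 counts each over the 6 libraries and none was tested. The delta-1 genes PCDH11X and PCDH11Y are near-identical copies on the sex chromosomes, and their reads cannot be assigned with certainty.

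The 47 genes too low for the test had 0 to 65 counts over all libraries, with a median of 17. At equal depth 30 of them were higher with MYCN shRNA and 15 with control. The exact 95% counting interval of the ratio lay above 1 for 8 (PCDHB13 and the PCDHG genes PCDHGA1, PCDHGA2, PCDHGA4, PCDHGA9, PCDHGB2, PCDHGB3 and PCDHGB7) and below 1 for 3 (PCDHA6, PCDHA9 and CDH15). PCDHGB7 had the most counts of the former, with 12 in control and 43 in MYCN shRNA libraries. PCDHA6 had 29 and 9. Replicates vary by more than counting error, so these intervals are too narrow. No matching split over all untested genes was computed for the 30 against 15. Tested genes under 2 CPM also leaned upward in the whole table, with 43.0% called higher and 16.9% lower.

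On the scale of CPM per kilobase, which allows genes to be compared, the order of the leading members in control cells was CDH24 at 11.3, CDH23 at 6.30, PCDHB5 at 4.89, PCDHB2 at 4.65, PCDHAC2 at 3.05, CDH22 at 2.94, PCDHA3 at 2.88, PCDHGA6 at 2.19 and CDH2 at 1.59. In MYCN shRNA cells it was CDH24 at 14.3, CDH23 at 9.51, PCDHB5 at 7.44, PCDHB2 at 6.76, CDH2 at 3.69, PCDHGA6 at 3.62, PCDHA3 at 3.53, CDH22 at 2.70 and PCDHA13 at 2.68. PCDHAC2, at 1.28, then stood below CDH20 (1.85), PCDHGC3 (1.51), PCDHB16 (1.47) and PCDHGA10 (1.44) as well.

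The other parts of the cadherin system did not move one way, and their counts stand beside 38.0% higher and 37.9% lower over all tested genes, so a list with most of its genes called is near the background of 75.8%. Of 21 other genes of the cadherin superfamily, 9 were tested, 5 rose and 3 fell. DCHS1 (log2 fold change 1.64) and CELSR1 (1.34), large cadherins of planar cell polarity, rose, CLSTN3 (-1.29) and CELSR2 (-0.38) fell, and the photoreceptor cadherin CDHR1, at 314 ± 8.61 CPM in control and 287 ± 7.83 CPM in MYCN shRNA libraries, was well above every member of the 85 by reads. Of 12 catenins and junction adaptors 11 were tested, 5 rose and 4 fell. CTNNB1, which encodes beta-catenin and links classical cadherins to the actin skeleton as well as carrying Wnt signals, fell from 212 ± 4.63 to 102 ± 2.52 CPM (log2 fold change -1.06, adjusted p = 2.0e-25), CTNND2 fell (-0.90), and VCL (vinculin, 0.86) and PKP4 (0.41) rose. JUP, the close relative of beta-catenin in desmosomes, rose by 0.85.

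Of 16 genes of the cohesin, CTCF and chromatin machinery known to act on the clustered promoters, 16 were tested, 7 rose and 7 fell (median -0.02 on the log2 scale). STAG1, a cohesin subunit (0.80), SMCHD1, a silencing factor of these arrays (0.53), and CTCF (0.33) rose, and the DNA methyltransferase DNMT1 (-0.46) and the histone methyltransferase SETDB1 (-0.26) fell. Of 8 proteases that cleave cadherins, 2 rose and 5 fell, with PSEN2 at -1.10 and ADAM10 at -0.52 among those that fell and NCSTN (0.33) and ADAM17 (0.17) those that rose. Of 5 cadherin repressors of epithelial to mesenchymal transition, 4 were tested, and ZEB2 (1.15) rose while SNAI1 (-0.49) and ZEB1 (-0.09) fell. Of 9 WAVE complex genes 4 rose, led by WASF2 (0.88) and ABI1 (0.54), and 2 fell, WASF1 (-0.93) and WASF3 (-0.24). Of 9 Usher proteins and partners of CDH23 and PCDH15, 7 were tested and 5 rose. CIB2, a calcium-binding partner of the hair cell channel, rose from 15.49 ± 1.74 to 41.7 ± 1.75 CPM (1.43, adjusted p = 2.9e-21), ADGRV1 rose (0.35), and MYO7A fell (-0.19).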

How the data were processed

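Poly(A) RNA of Y79 cells with control shRNA (3 libraries) or MYCN shRNA (3 libraries) was sequenced, per the labels. For every gene symbol the authors deposited an estimated count in each library, without scaling between libraries; 12.5% to 12.8% of a library's values are fractional. Reads were placed on GRCh38, as the submitters' processing notes state. The program that aligned or counted them, its annotation and its use of strand were not given in the sources used here. Of 17035 rows, 22 held no values.

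Estimated counts were rounded, and 12819 genes passing filterByExpr (minimum count 10; 99.95% of counts) were tested with edgeR 4.0.16 in R 4.3.3 (robust quasi-likelihood F-test, TMM factors of 0.930 to 0.948 in control and 1.059 to 1.070 in MYCN shRNA libraries), adjusted by Benjamini-Hochberg at 0.05. Alternatives were DESeq2 1.42.0, limma 3.58.1 (voom), other scalings and filters, a 2-fold threshold, a replicate block and leaving out each library. The SE of a log2 fold change was computed as its absolute value divided by the square root of edgeR's F statistic. The biological coefficient of variation was 3.34%. Replicates of a group differed beyond sampling noise (chi-square per degree of freedom 1.73 to 4.23). Each library counted as 1 sample. This spread may be technical and does not show that the libraries come from separate cultures. Library totals ran from 15490263 to 16078416; intervals are exact 95% intervals for counting error only. Levels per kilobase, positions and shared exonic bases used GENCODE 29 (GRCh38); promoters came from RefSeq (GRCh38.p14).

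Same-numbered libraries of the 2 groups, numbered in the titles, deviated together from their group means (r = 0.397, 0.301 and 0.202 over 9722 genes), which was taken as pairing.

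Tested on simulated data for this comparison (12719 genes, 200 changed), the fit recovered 82.3% of 1.5-fold, 97.1% of 2-fold and 100% of 4-fold changes and called 15 unchanged genes. In the libraries themselves 75.8% of the tested genes were called, a far larger share than the 200 changed here. These percentages were not split by level. Recovery among genes under 2 CPM, where 16 of the 38 tested members lie, was not given apart.

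The members and lists were chosen with earlier results of these data known. Genes named were MYCN, all type I cadherins, up to 4 called members with the smallest p per subfamily and direction, the 10 most abundant members, members called at 2-fold with at least 1 CPM, and up to 2 genes per direction of each other list; others named were chosen after their values were seen, and 1 gene the rule takes is not reported here. Other software was Python 3.11.15 with pandas 2.3.3, scipy 1.17.1, matplotlib 3.10.9 and numpy 2.4.6.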

Additional observations from a re-analysis of the deposited data

How the results depend on the processing

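Of the 85 genes, 22 were called higher and 3 lower. DESeq2 and a filter of 1 CPM in 3 libraries each gave 19 higher, no filter gave 26 higher and 5 lower of 83 tested, and a 2-fold threshold gave 12 higher and 2 lower; limma-voom and the RLE and upper quartile scalings called the same 25 genes. Leaving out 1 library gave 20 to 24 higher and 4 to 6 lower (5 without control replicate 3 or MYCN shRNA replicate 1 or 3, 6 without MYCN shRNA replicate 2); 41 to 43 members then passed the filter, and the additions included CDH15, PCDHA6 and PCDHGB7, which had not passed it, and PCDHA1 and PCDHGA11, which had. The replicate block, which pairs same-numbered libraries, called the same 22 higher and 3 lower and so changed no call.

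Scaling by library totals alone moved the median of all genes from 0.005 to 0.19 and the split of calls from 4865 higher and 4857 lower to 6597 and 3348 (66.3% higher; members, 88.0% to 91.7%); it ended the call of PCDHA11 and turned the sign of CDH22 (0.055, adjusted p = 0.629). The members' median was then 0.67. For the 25 called genes and CDH22, 348 of 361 log2 fold changes kept direction and side of the threshold, 12 kept direction without the call (CDH11, PCDHA4, PCDHA7 and PCDHA11) and 1 reversed; the cause was not tested. Members under about 1 CPM rest on few counts, which limits their fold changes.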
